A study of Mus musculus with 5 samples.

Results

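Fibro-adipogenic progenitors (FAPs) are the mesenchymal stromal cells of skeletal muscle, and those described here were taken 5 days after muscle injury. They are the 828 cells that the submitters' deposited annotation labels FAPs in the day 5 library, out of 2164 annotated cells in that library and 17923 in the series. The series holds single-cell RNA profiles of live, sorted cells from a muscle of the lower leg, the tibialis anterior, in C57Bl/6 mice. The day 5 material came from 4 month old females. The other days are day 0, which is uninjured muscle of 4 month old females with 2 samples held in 1 table, day 2 of 7 month old females and day 7 of 4 month old males. Tissue was digested with collagenase and dispase, and live cells were sorted with dyes, so no surface marker chose the FAPs. All injuries were made with notexin, a snake venom phospholipase that destroys muscle fibres. Each day has 1 table without replicates that can be told apart, the number of animals behind it is not given in the sources used here, and day is confounded with library and in part with age and sex. No test between conditions was therefore possible, and the intervals given are 95% intervals that cover the counting of molecules only.

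FAPs lie between the muscle fibres, carry the receptor Pdgfra and lay down most of the interstitial matrix of muscle. After acute injury they multiply, secrete signals that act on muscle stem cells and inflammatory cells, and build a transient matrix that is later cleared. When regeneration fails, the same cells are a source of scar and of fat within the muscle. Fibroblasts of many tissues fall along an axis from perivascular or fascial cells with Pi16 and Dpp4 to cells within the tissue that carry matrix genes and Cxcl14.

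The FAPs held 2916545 unique molecular identifiers (UMIs, each standing for 1 captured RNA molecule), with a median of 2785 per cell, a range from 1002 to 12748, and a median of 1287 genes. FAPs had the highest median of the labels, above 1357 UMIs in Macrophages/APCs/T-cells and 2532 in Anti-inflammatory macrophages. Levels are given as UMIs per 1000000 UMIs of a label (cpm), and differences as log2 ratios of those levels. Day 5 shared 12 cell barcodes with day 0, 9 with day 2 and 16 with day 7. The label B cells held 29 cells, under the minimum of 40 cells set for a label, and was not compared.

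Marker genes were compared between the labels first. The 12 FAP marker genes added up to 57885 cpm in FAPs, against 1250 cpm in NK cells, 1511 in Anti-inflammatory macrophages, 2535 in MuSCs and progenitors (muscle stem cells), 2891 in Endothelial, 4170 in Macrophages/APCs/T-cells and 7080 in Mature skeletal muscle. In 821 of the 828 FAPs at least 2% of all UMIs came from these 12 genes, as in 7 of the 409 cells labelled Macrophages/APCs/T-cells. Pdgfra, the receptor for platelet-derived growth factor, stood at 319 cpm (299 to 340), and its next highest label was Macrophages/APCs/T-cells at 26.9 cpm. Col1a1, a chain of type I collagen, stood at 8706 cpm (8599 to 8813), against 545 cpm in that same label. Clec3b, the plasminogen-binding protein tetranectin, stood at 2136 cpm (2084 to 2190), with 190 cpm in Mature skeletal muscle as the next highest.

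Tnc and H19 did not mark the label in this way. Tnc, the matrix protein tenascin-C, stood at 207 cpm (191 to 224) in FAPs and at 128 cpm in Macrophages/APCs/T-cells, a log2 ratio of 0.70 (0.38 to 1.02). The 95 Tnc UMIs of that other label lay in 6 of its cells, and 65 of them in 1 cell. In the FAPs themselves only 96 cells had a Tnc UMI, and 10 cells held 52.5% of the 604 UMIs. H19, an imprinted non-coding RNA, stood at 709 cpm in FAPs and at 2443 cpm in Mature skeletal muscle, a log2 ratio of -1.78 (-1.94 to -1.62). Against the labels with at least 100 cells alone, that ratio was 3.13. This leaves out Mature skeletal muscle and also MuSCs and progenitors, where H19 stood at 268 cpm.

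RNA of other cell classes was low but present in FAPs. The macrophage list summed to 504 cpm, with all 12 genes detected and its highest gene at 154 cpm. The mature muscle list summed to 760 cpm, the NK cell list to 160 cpm with Prf1 at 0, the endothelial list to 140 cpm and the T cell list to 23.7 cpm. The muscle stem cell list reached 235 cpm with Myod1 and Myog at 0. At least 2 UMIs of macrophage, NK, T cell or endothelial markers were found in 559 FAPs (67.5%) and at least 10 in 21 FAPs (2.54%). The part that free RNA or doublets had in the values was not tested.

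The first question was which RNAs set FAPs apart from the other cells of the injured muscle. Of 2659 genes with at least 50 cpm and 20 UMIs in FAPs, 365 (13.7%) stood at least 2-fold higher in FAPs than in each of the 6 other labels. The labels come from clustering of the same cells, so this describes the label and does not test it. With every cell thinned to 1000 UMIs the count was 188, of which 180 were among the 365. A label with fewer than 3 UMIs of a gene was given 3, and in small thinned labels this floor stands higher in cpm. It can keep genes of low level from passing, so the lower count is not a measure of depth alone. Myoc, the secreted protein myocilin, had the largest ratio of the genes that reached 100 cpm and 50 UMIs in FAPs. It stood at 1111 cpm (1073 to 1150) in FAPs and at 29.0 cpm from 5 UMIs in Endothelial, a log2 ratio of 5.26 (4.04 to 6.89). The matrix gene Tnxb (tenascin-X) followed at 590 cpm and a log2 ratio of 4.25 (3.66 to 4.91), and Angptl1, a secreted angiopoietin-like protein, at 452 cpm and 4.22 (3.55 to 4.98). Dpt (dermatopontin, which binds decorin) reached 1787 cpm and 4.18 (3.85 to 4.54), Smoc2, a secreted calcium-binding matrix protein, 1646 cpm and 4.15 (3.80 to 4.51), and Pi16, a peptidase inhibitor known from adventitial fibroblasts, 1253 cpm and 4.13 (3.74 to 4.55).

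**Figure D1:**
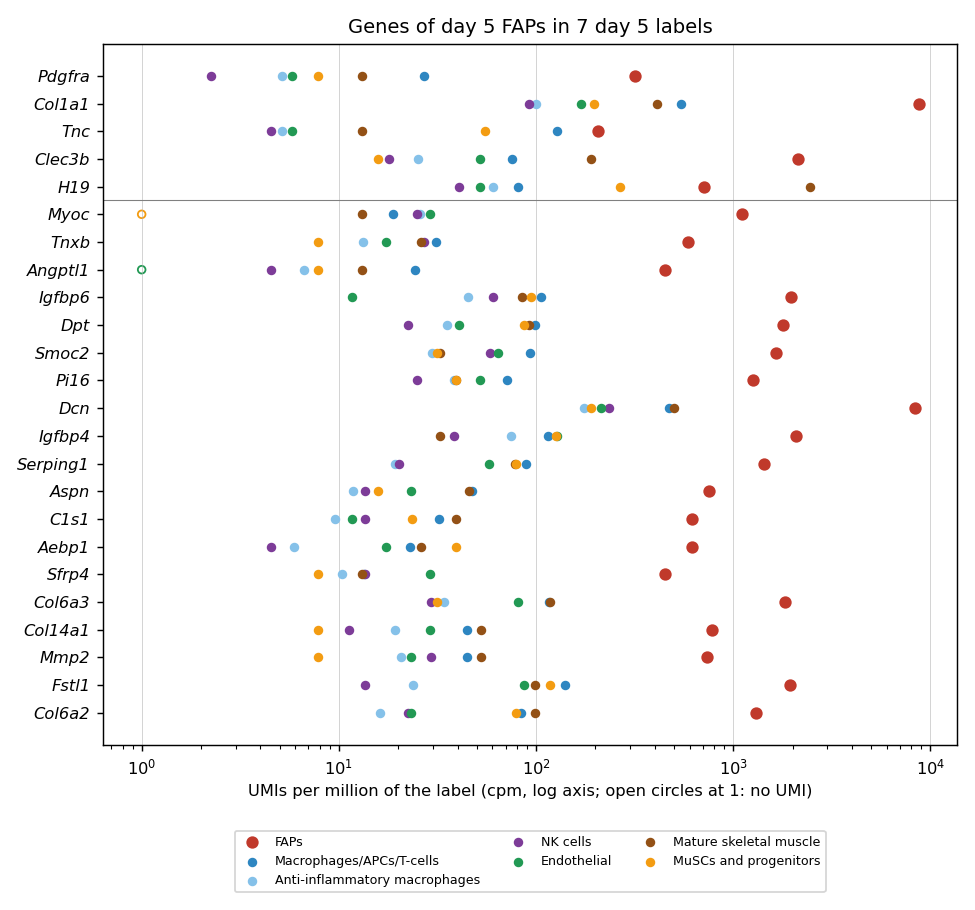
Level of 24 genes in the 7 labels with at least 40 cells at day 5, in cpm on a log axis. The 5 marker genes stand above the grey line and the genes with the largest ratio below it. Red points are FAPs. For Tnc the Macrophages/APCs/T-cells point at 128 cpm lies close to the FAP point at 207 cpm, and for H19 the Mature skeletal muscle point at 2443 cpm lies above it.

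Detection in single cells was compared at equal depth. With each cell thinned at random to 1000 UMIs, Dcn was detected in 99.2% of FAPs, Clec3b in 80.4%, Dpt in 76.7%, Pi16 in 47.1%, Myoc in 45.5% and Pdgfra in 28.7%. Among the 431 Anti-inflammatory macrophages with enough UMIs (1 was left out) the same genes were found in 16.9%, 3.71%, 3.94%, 4.18%, 2.32% and 0.464%, which serves as the background for genes that macrophages should lack. Without thinning, Pdgfra was detected in 60.6% of FAPs and 1.62% of those macrophages. Median depth before thinning was 2785 UMIs in FAPs and 2532 in those macrophages.

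Fibrillar collagens summed to 32976 cpm in FAPs and other collagens to 7116 cpm. Of the 8 fibrillar collagens 6 passed the filter on low levels, and these 6 stood at least 2-fold above every other label, with a median log2 ratio of 3.53 against -0.62 over all genes tested. Since the filter asks for a level in FAPs, such counts leave out members that are low there, here and in the groups below. Col3a1, the type III chain of loose and early matrix, was the most abundant at 13365 cpm and a log2 ratio of 3.57 (3.35 to 3.79). Col1a2, the second chain of type I collagen, stood at 7842 cpm and 3.67 (3.35 to 4.01), and Col5a1, of the type V collagen that starts fibrils, at 958 cpm and 3.50 (3.14 to 3.88). Of the 12 other collagens 11 were tested and 6 passed the same fold, among them Col6a1, Col6a2 and Col6a3 of the beaded type VI collagen, with Col6a3 at 1829 cpm and 3.96 (3.29 to 4.71). The basement membrane chains Col4a1 and Col4a2 were lower than in Endothelial, with Col4a1 at 920 cpm in FAPs and 2949 cpm in Endothelial, a log2 ratio of -1.68 (-1.82 to -1.54).

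The proteins that bind, fold and trim collagen followed. Of 9 small leucine-rich proteoglycans, which coat collagen fibrils, 8 were tested and passed the fold, led by Dcn (decorin) at 8335 cpm and a log2 ratio of 4.07 (3.74 to 4.41), Bgn (biglycan) at 2152 cpm and Lum (lumican) at 1958 cpm. Fmod, 1 of the 8, rested on few cells, as given with the sub-clusters. Of the matricellular and structural glycoproteins 21 of 25 tested passed. Fn1 (fibronectin) stood at 2640 cpm with a log2 ratio of 3.37 (3.22 to 3.53), Postn (periostin) at 2134 cpm with 2.791 (2.601 to 2.988), and Fbn1 (fibrillin-1, of microfibrils) at 924 cpm with 3.29 (2.48 to 4.24). Sparc (osteonectin) was abundant at 7003 cpm, but Endothelial held 3019 cpm, and the log2 ratio was 1.21 (1.09 to 1.34). Of the genes for collagen folding and crosslinking 11 of 14 passed, with a median log2 ratio of 1.35, lower than that of the collagens themselves. Pcolce, an enhancer of collagen trimming, had 954 cpm and 3.28 (2.56 to 4.12), and the chaperone Serpinh1 1348 cpm and 1.03 (0.76 to 1.31).

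Genes of matrix turnover were high as well, with 12 of 17 tested past the fold. Mmp2 (gelatinase A) stood at 732 cpm and a log2 ratio of 3.80 (2.82 to 5.02), and Ctsk, the collagen-degrading cathepsin K, at 452 cpm and 3.48 (2.96 to 4.06). The protease inhibitor Timp2 stood at 1061 cpm and 1.89 (1.74 to 2.05). Adamts1, a protease of large proteoglycans, was lower in FAPs, at 452 cpm against 1223 cpm in Endothelial.

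Secreted signals fell into those held by FAPs and those shared with other cells. Of 20 genes for growth signals known to act on muscle progenitors, 8 were tested and 6 passed the fold. Fstl1, a follistatin-like glycoprotein, stood at 1946 cpm and a log2 ratio of 3.80 (3.52 to 4.09), Igf1, a growth factor for myoblasts, at 408 cpm and 2.54 (2.24 to 2.86), and Fst, the myostatin antagonist follistatin, at 184 cpm and 2.49 (1.26 to 4.12). Igf2 did not pass, at 209 cpm in FAPs and 378 cpm in MuSCs and progenitors. Of 10 secreted Wnt modulators 3 were tested and these passed, led by Sfrp4 at 453 cpm and 3.97 (2.74 to 5.59). Of 7 IGF receptors and binding proteins only Igfbp4 and Igfbp6 passed, at 2075 cpm and 1958 cpm. Igfbp7 was higher in Endothelial, at 4995 cpm against 1739 cpm in FAPs, and the level of Igfbp5, with a log2 ratio of 0.16 (-0.08 to 0.42), was 1190.4 cpm against 1063 cpm in MuSCs and progenitors.

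Among chemokines and cytokines 8 of 14 tested passed the fold. Cxcl1, a neutrophil attractant, stood at 802 cpm and a log2 ratio of 2.86 (2.11 to 3.74), Ccl11 (eotaxin) at 614 cpm and 3.09 (2.25 to 4.10), Cxcl14 at 730 cpm and 3.02 (2.66 to 3.39), and Il6 at 206 cpm and 1.45 (0.67 to 2.37). Cxcl2 was lower, at 77.5 cpm against 924 cpm in Anti-inflammatory macrophages, and Cxcl12, a retention signal for blood cells, was 501 cpm against 875 cpm in Endothelial. Of the complement genes 7 of 8 tested passed. Serping1, the inhibitor of the first complement proteases, had 1429 cpm and 4.01 (3.66 to 4.38), C1s1, one of those proteases, 617 cpm and 3.97 (2.85 to 5.42), and C3, the central component, 675 cpm and 1.56 (1.08 to 2.09).

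Some gene groups stood below other labels. Of the 2659 genes tested, 843 (31.7%) were at least 2-fold lower in FAPs than in the label where they were highest. Of 11 genes of MHC class I presentation 8 were tested and 7 were lower in this way, with B2m at 2075 cpm against 6618 cpm in Anti-inflammatory macrophages and H2-K1 at 660 cpm against 2845 cpm in NK cells. Of 14 heat shock genes 9 were, with Hspa1a at 568 cpm against 2723 cpm in Endothelial. Of 22 cell cycle genes only 3 reached 50 cpm in FAPs, and these 3 were lower, with H2afz at 344 cpm and Pcna, the replication clamp, at 53.5 cpm, against 1609 cpm and 292 cpm in Macrophages/APCs/T-cells. Of 13 contractile genes 6 were tested and 4 were lower. Of the 11 interferon-stimulated genes tested 4 were lower, a share close to that over all genes tested, and Isg15 stood at 307 cpm against 701 cpm in Endothelial.

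Against all 6 labels at once, low genes were few. Of 844 genes with at least 50 cpm in every other label, 2 (0.237%) were at least 2-fold lower in FAPs than in each. Cox5a, a subunit of cytochrome oxidase, stood at 218 cpm against 469 cpm or more elsewhere, and Hprt, a purine salvage enzyme, at 31.5 cpm against 70.8 cpm or more. Both were named because the count was this small. With all cells thinned to 1000 UMIs the count was 0, and against the labels with at least 100 cells alone it was 64. Taken label by label, the share of tested genes at least 2-fold higher in FAPs was 18% against Endothelial, 26.9% against MuSCs and progenitors, 27% against Anti-inflammatory macrophages, 29.2% against Macrophages/APCs/T-cells, 32.3% against NK cells and 48.4% against Mature skeletal muscle. The share at least 2-fold lower was 26.3%, 16.9%, 19.1%, 20%, 21.6% and 25% in the same order. Against Endothelial alone of the 6, more genes stood above FAPs than below them, 997 against 682. Mitochondrial and ribosomal protein genes made up 22.99% of FAP UMIs, 35.6% in Macrophages/APCs/T-cells, 37.5% in NK cells and 41.0% in MuSCs and progenitors. Leaving them out of the totals moved every log2 ratio to those 3 labels by -0.26, -0.30 and -0.38, and by 0.10 for Mature skeletal muscle. The split of higher to lower genes then became 1059 to 1261, 1172 to 1336 and 596 to 1576, from 988 to 676, 1098 to 734 and 895 to 564.

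The second question was how far the 828 FAPs differed among themselves. Spread was measured as the Fano factor, the variance of a gene's UMIs over cells divided by its mean, after thinning each cell to 1000 UMIs, where counting alone gives a value near 1. Of 2692 genes with a mean of at least 0.05 UMIs, 163 (6.05%) had a Fano factor of 1.5 or more, and the median over all tested genes was 1.05. At equal relative spread the Fano factor rises with the mean, so it ranks abundant genes high and does not rank genes by relative spread. Gsn (gelsolin, which severs actin filaments) had the largest value, at 13.0, with a median of 11 UMIs per thinned cell, a 90th percentile of 34 and a maximum of 71. Col1a1 stood at 8.67, with a median of 4 UMIs and a maximum of 60, Mgp (matrix Gla protein, which holds back calcification) at 8.63, Col3a1 at 6.93, Apod (apolipoprotein D) at 6.54 and Igfbp5 at 5.80. Malat1, a nuclear RNA, stood at 10.2, and the metallothionein genes Mt1 and Mt2 at 5.27 and 5.00.

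**Figure D2:**
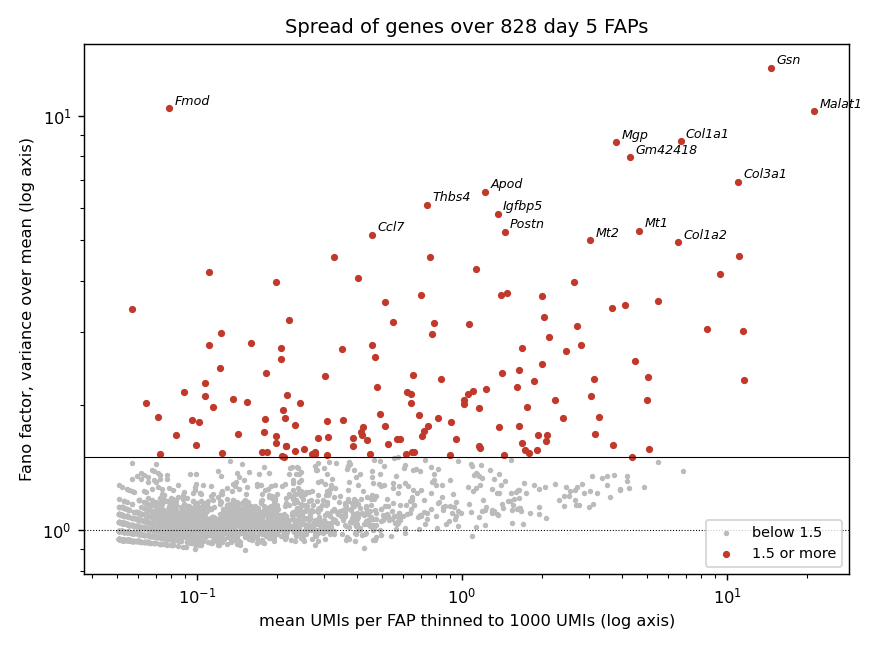
Fano factor of 2692 genes over the 828 FAPs against the mean UMIs per cell, both on log axes, with every cell thinned to 1000 UMIs. Red points are the 163 genes at 1.5 or more. Gsn lies highest at 13.0, and Fmod stands apart at 10.4 with a mean of only 0.0785 UMIs.

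Of the chemokine and cytokine genes 11 of 14 had a Fano factor of 1.5 or more, led by the monocyte chemokine Ccl7 with 5.15, the lymphocyte chemokine Cxcl10 with 4.57, and Cxcl14 with 4.55. Of the imprinted genes 8 of 12 did, with Igf2 at 3.97, Dlk1 at 3.42 and H19 at 3.18, and of the immediate early genes 12 of 18, with Fos at 3.11. Of the fibrillar collagens 3 of 6 tested did. Pdgfra itself stood at 1.15 with a mean of only 0.365 UMIs per thinned cell, and Dcn at 4.14 with a mean of 9.40. These values therefore do not show that Pdgfra was the more even of them.

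Interferon-stimulated genes were detected unevenly over FAPs. Of 7 tested 4 had a Fano factor of 1.5 or more, which were Ifi27l2a at 2.32, Ifit1 at 2.07, Isg15 at 1.95 and Bst2 at 1.53. Isg15, a ubiquitin-like protein, had 895 UMIs in 267 FAPs (32.2%), up to 53 in 1 cell, and 10 cells held 25.4% of them. Ifit1, which binds foreign RNA, had 462 UMIs in 161 FAPs (19.4%), and 10 cells held 27.9% of them. After thinning, Isg15 was detected in 13.9% of FAPs and 19.03% of Anti-inflammatory macrophages, so that its share was no higher in FAPs, and Ifit1 in 8.57% and 1.86%. After thinning, the summed list had a median of 2 UMIs per cell, a 90th percentile of 5.3 and a maximum of 24, and 23.4% of FAPs had none.

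Some of their promoters are shown for a known binding site of interferon-activated factors. This is the interferon-stimulated response element, written here as GAAANNGAAA on either strand. In the 250 bases before the gene start, from RefSeq promoters of build GRCm38.p6, it was present in 9 of the 17 list members with an entry (52.9%). Ifi27l2a was not among these 9. Over all 27025 genes with a promoter entry it was present in 3.46%, and in 4.10% of the 2000 with at least 50 cpm in FAPs. The promoter entries counted here did not cover every chromosome. A match describes the letters and not the binding of a factor. The stretches below are printed in the direction of the gene with the element in capitals, where adjoining capitals are overlapping matches. They are chr4:156200850-156200921 on the minus strand for Isg15, chr19:34640760-34640838 on the plus strand for Ifit1, and chr8:71537562-71537627 on the minus strand for Bst2, a membrane tether of budding viruses.
Isg15: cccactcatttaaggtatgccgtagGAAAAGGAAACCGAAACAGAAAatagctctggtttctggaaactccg
Ifit1: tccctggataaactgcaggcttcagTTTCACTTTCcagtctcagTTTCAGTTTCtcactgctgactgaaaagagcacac
Bst2: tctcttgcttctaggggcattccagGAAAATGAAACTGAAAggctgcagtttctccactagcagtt
Isg15 holds 3 overlapping matches, Ifit1 2 separate matches and Bst2 2 overlapping matches. The last match begins 66 bases before the gene start in Isg15, 85 in Ifit1 and 124 in Bst2.

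Clustering of the 828 FAPs by their variable genes gave 6 sub-clusters of 255, 163, 148, 117, 97 and 48 cells. They are numbered by size and given no cell type name, and the genes that define them are given as a description. Median depth differed, from 2066 UMIs in sub-cluster 2 to 4126 in sub-cluster 1 and 5402 in sub-cluster 6, and its part in the grouping was not tested. Shares of cells below are from cells thinned to 1000 UMIs. To see which groups returned, the UMIs of every cell were split at random in 2 parts, cells were clustered on 1 part, and levels were read from the other. The split gave 4 clusters. Its cluster that matched sub-cluster 1 held 232 of the 255 cells and 256 cells in all. A cluster of 259 cells held 115 of the 117 cells of sub-cluster 4 and 64 of the 148 of sub-cluster 3. Another of 231 cells held 88 of the 97 cells of sub-cluster 5 and 79 of the 163 of sub-cluster 2. A cluster of 82 cells held 44 of the 48 cells of sub-cluster 6. In this split only sub-cluster 1 thus came back with nearly the same cells. With all UMIs clustered at resolution 0.8, the matching clusters held 160 of its 255 cells and 98 of the 163 of sub-cluster 2. For sub-clusters 3, 4, 5 and 6 they held 146, 114, 97 and 48 cells, in clusters of 152, 115, 98 and 53. At resolution 0.3 sub-clusters 1 and 6 matched clusters of 246 and 49 cells. Sub-clusters 2, 3 and 5 then matched the same cluster of 353 cells, and sub-cluster 4 a cluster of 180. Which groups returned thus depended on the setting.

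**Figure D3:**
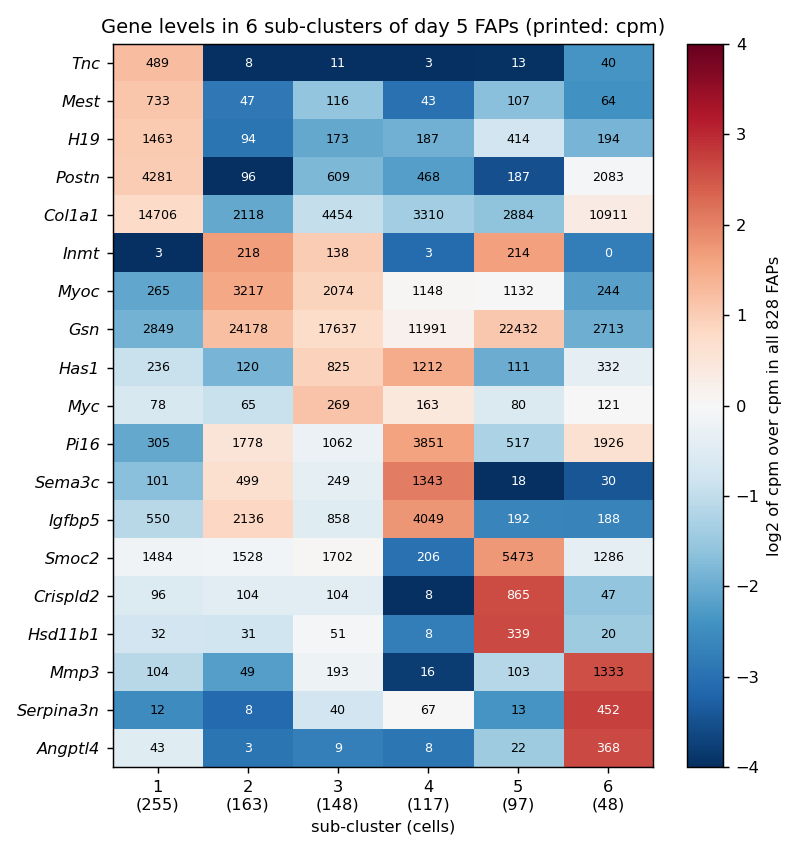
Level of 19 genes in the 6 sub-clusters of day 5 FAPs. The numbers in the cells are cpm, the colour is the log2 ratio to the level in all 828 FAPs, and the axis below gives the number of cells. Tnc, Mest, H19 and Postn are highest in sub-cluster 1, Sema3c and Pi16 in sub-cluster 4, Smoc2 and Crispld2 in sub-cluster 5, and Mmp3 and Serpina3n in sub-cluster 6.

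Sub-cluster 1, with 30.8% of the FAPs, had the highest level of injury-activated FAP genes, with a list sum of 9321 cpm against 689 to 5633 cpm. Of 2967 genes tested, 137 (4.62%) were at least 2-fold higher there than in the other FAPs and 164 (5.53%) lower. Of 13 tested genes of the activated list 10 were higher. Tnc stood at 489 cpm in sub-cluster 1 and at 40.2 cpm or less in each other sub-cluster, and it was detected in 17.3% of its thinned cells against at most 2.08% elsewhere and 0.928% of Anti-inflammatory macrophages. Postn stood at 4281 cpm against 96.2 to 2083 cpm, and was detected in 81.6% of its cells against 9.82% to 68.8%. The heparin-binding growth factor Ptn stood at 294 cpm against at most 35.6 cpm. Fibrillar collagens summed to 49525 cpm, against 12658 in sub-cluster 2 and 41209 in sub-cluster 6. The tenocyte list moved with these genes, at 2501 cpm against 169 to 1688 cpm, while the macrophage list stood at 504 cpm against 429 to 606 cpm. Thbs4 held 2972 of the 3951 UMIs of the tenocyte list in all FAPs. The part of cells with markers of these classes in the levels is covered below by leaving cells out.

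The same cells held the imprinted growth genes. Of 13 imprinted genes tested, 10 were at least 2-fold higher in sub-cluster 1, and the sum was 9212 cpm against 2134 to 4337 cpm in the others. H19 stood at 1463 cpm against 93.6 to 414 cpm, Mest at 733 cpm against 42.8 to 116 cpm, and Igf2, a fetal growth factor, at 437 cpm against 3.35 to 169 cpm. H19 was detected in 49.0% of its thinned cells and Mest in 41.2%, against at most 16.7% and 8.11% in other FAPs and, for H19, 4.87% of Anti-inflammatory macrophages. In the cluster of the split that matched sub-cluster 1, read on the UMIs not used for clustering, the log2 ratio to the other FAPs was 3.09 (2.84 to 3.35) for H19, 3.02 (2.66 to 3.40) for Mest and 4.66 (3.93 to 5.48) for Tnc. These genes, like those read in the same way below, had been picked on all UMIs.

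Interferon-stimulated and resting genes also differed in sub-cluster 1. Of 13 interferon-stimulated genes 5 were at least 2-fold higher, and the sum was 3299 cpm against 1226 to 2917 cpm. The genes known from Pi16 fibroblasts were low there, with 10 of 12 at least 2-fold lower. Gsn stood at 2849 cpm, against 2713 cpm in sub-cluster 6 and 11991 to 24178 cpm in the other 4, and Col1a1 at 14706 cpm against 2118 to 10911 cpm.

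Sub-cluster 4, with 14.1% of the FAPs, held genes of the Pi16 and Dpp4 type of fibroblast. Of 3077 genes 221 (7.18%) were at least 2-fold higher and 213 (6.92%) lower, and of that list 13 of 14 were higher. Pi16 stood at 3851 cpm against 305 to 1926 cpm, and was detected in 88.9% of its thinned cells. Sema3c, a secreted guidance protein, stood at 1343 cpm against 17.8 to 499 cpm and was detected in 68.4% of its cells against 2.06% to 26.4%. Aldh1a3, an enzyme that makes retinoic acid, stood at 110 cpm against at most 13.0 cpm, and Igfbp5 at 4049 cpm against 188 to 2136 cpm. The mature muscle list stood higher in these cells, at 1298 cpm (1185 to 1419) against 546 to 927 cpm, with Pvalb, a calcium buffer of fast muscle fibres, at 222 cpm. The T cell list stood at 53.5 cpm against 8.89 to 35.7 cpm, and the NK cell list at 246 cpm against 98.1 to 288 cpm. Their part in the levels was not tested. Of 11 collagens outside the fibrils 10 were at least 2-fold lower, a group whose sum was 3040 cpm against 4342 to 10024 cpm. In the matching cluster of the split, which also held cells of sub-cluster 3, Sema3c had a log2 ratio of 3.55 (3.23 to 3.89) and Igfbp5 of 2.48 (2.33 to 2.62).

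Sub-cluster 5, with 11.7% of the FAPs, held genes of the Cxcl14 and Smoc2 type. Of 3129 genes 247 (7.89%) were at least 2-fold higher and 169 (5.4%) lower, and 10 of 14 genes of that list were higher. Smoc2 stood at 5473 cpm against 206 to 1702 cpm, and Crispld2, a secreted protein, at 865 cpm against 8.03 to 104 cpm, detected in 61.9% of its thinned cells against at most 14.1%. Hsd11b1, which activates glucocorticoids, stood at 339 cpm against 8.03 to 51.1 cpm, and Mme, the surface peptidase neprilysin, at 290 cpm against 18.7 to 64.4 cpm. Pdgfra was highest there, at 651 cpm against 185 to 382 cpm. The 3 secreted Wnt modulators that passed the filter were at least 2-fold lower, and the whole list had a sum of 71.3 cpm against 348 to 1671 cpm. In the matching cluster of the split, which also held cells of sub-cluster 2, Crispld2 had a log2 ratio of 2.53 (2.13 to 2.92). Cxcl14 itself was at least 2-fold higher in sub-cluster 6 as well, where 2 of the 14 list genes were higher and 7 lower.

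Sub-cluster 6, the smallest with 48 cells (5.80%, 4.30% to 7.61%), had the highest sum of chemokine and cytokine genes, as given below. Of 2994 genes 143 (4.78%) were at least 2-fold higher and 257 (8.58%) lower. Mmp3 (stromelysin-1) stood at 1333 cpm against 16.1 to 193 cpm and was detected in 43.8% of its thinned cells against at most 8.78%. Serpina3n, an acute phase protease inhibitor, stood at 452 cpm against 7.80 to 66.9 cpm, and Angptl4, an inhibitor of lipoprotein lipase, at 368 cpm against 2.599 to 43.0 cpm. Of 15 chemokine and cytokine genes 9 were at least 2-fold higher, among them Ccl2, Ccl7, Cxcl1 and Ptx3, and the sum was 8915 cpm against 2697 to 7425 cpm. Of 10 complement genes 4 were higher. Chl1, a cell adhesion molecule, rested on few cells, with 79 UMIs in 34 of all 828 FAPs. The NK cell list stood at 288 cpm against 98.1 to 246 cpm, and its part in the levels was not tested. Leaving out FAPs with 2 or more UMIs of other classes left 5 of the 48 cells. After clustering again the best matching cluster held 2 of them (a Jaccard index, shared cells over all cells of both, of 0.0308). Deep cells reach such a UMI count more easily, and 5 cells are too few to tell whether the group returns. Leaving out FAPs with 4 or more markers of another class, chosen after seeing the data, kept 40 of the 48 cells. The matching cluster of 45 cells then held 39 of them. In the matching cluster of the split Mmp3 had a log2 ratio of 3.76 (3.41 to 4.13) and Serpina3n of 4.13 (3.44 to 4.86).

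Sub-clusters 2 and 3, as given above, did not return as separate groups when the UMIs were split. In sub-cluster 2, 109 of 3062 genes (3.56%) were at least 2-fold higher and 182 (5.94%) lower, and in sub-cluster 3 the counts were 32 of 2927 (1.09%) and 77 (2.63%). Myoc stood at 3217 cpm and 2074 cpm in them, against 244 to 1148 cpm in the other 4, and Gsn at 24178 cpm and 17637 cpm, against 22432 cpm in sub-cluster 5 and 11991 cpm or less in the other 3. In sub-cluster 3 the growth regulator Myc stood at 269 cpm against 65.0 to 163 cpm. Clustering without FAPs that had 2 or more UMIs of other classes gave Myc a log2 ratio of -0.14, read in a cluster of 101 cells. That cluster held 29 of the 54 remaining cells of sub-cluster 3 and 33 of the 34 of sub-cluster 4. It thus does not stand for sub-cluster 3 alone. With the grouping kept and only the 67 FAPs with 4 or more markers of another class left out, the Myc ratio was 1.49 (1.14 to 1.83). Has1, a hyaluronan synthase, stood at 825 cpm there and at 1212 cpm in sub-cluster 4. In sub-cluster 3 the immediate early genes summed to 20164 cpm, against 20604.5 cpm in sub-cluster 5. In sub-cluster 2 the gene with the largest ratio was Rgs5, a pericyte marker, but 40 of its 45 UMIs in all FAPs came from 1 cell.

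A few cells with the FAPs label carried several genes of another cell type. UMIs of at least 4 markers of tenocytes, the cells of tendon, were found in 15 FAPs, all in sub-cluster 1. The same was true of macrophages for 50 FAPs, of endothelial cells for 3, of glia for 2 and of pericytes and smooth muscle for 1, which made 67 FAPs (8.09%) in all, 41 of them in sub-cluster 1. The 15 cells held 92.3% of the 261 UMIs of Fmod (fibromodulin, of tendon and fascia), 80.3% of the 132 UMIs of Tnmd (tenomodulin) and 95.6% of the 90 UMIs of Cilp2. Fmod stood at 217 cpm in sub-cluster 1 and at 15.4 cpm when the 67 cells were left out, and Tnmd at 107 cpm and 17.6 cpm. Tnc was less dependent on them, at 298 cpm against 14.4 cpm in the other FAPs, although the 67 cells held 51.3% of its UMIs. H19 and Postn stood at 1541 cpm and 4077 cpm in sub-cluster 1 without them.

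Gene groups were then compared across single FAPs. The rank correlations of summed UMIs in cells thinned to 1000 UMIs are descriptions, since the cells share a library and their counts compete for a fixed total. Fibrillar collagens went with matrix glycoproteins (Spearman's rho of 0.69, n = 828 cells), with the activated list (0.63) and with the imprinted genes (0.51), with no gene shared between the lists of any of these pairs. They went against the Cxcl14 and Smoc2 list (-0.60), and so did the activated list (-0.62). Gsn alone held 10608 of the 20917 cpm of the Cxcl14 and Smoc2 list, and correlations without Gsn were not computed. For the Pi16 list the values were near 0, at -0.10 with the fibrillar collagens and -0.12 with the Cxcl14 and Smoc2 list. Interferon-stimulated genes went weakly with the activated list (0.23), and immediate early genes went with heat shock genes (0.39) and not with the fibrillar collagens (-0.15). Cell cycle genes were at 0 UMIs in 52.7% of thinned FAPs.

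The last question was what separated day 5 FAPs from the FAPs of the other days, with 3516 cells at day 0, 667 at day 2 and 1889 at day 7, where the labels FAPs and FAPs (activated) were pooled. Of 3430 genes tested 80 (2.33%) were at least 2-fold higher at day 5 than on each other day, and of 2094 genes 50 (2.39%) were at least 2-fold lower. The same contrast in endothelial cells of these libraries gave the same direction past 2-fold for 51 of the 80 and 25 of the 50, while 21 and 21 did not pass. The other 8 and 4 had under 5 UMIs in day 5 endothelial cells, observed or expected at the nearest other day's level, and were not compared. Among the 80 were 31 genes with ribosomal protein or Gm names, and the largest ratio was that of Gm42418, with a log2 ratio of 2.67 in FAPs and 2.03 in endothelial cells. Rps28, of the small ribosomal subunit, had 1.95 and 1.82. The day 5 library was also the shallowest for FAPs, with a median of 2785 UMIs per cell against 4452, 12321 and 7007 at days 0, 2 and 7, and the macrophage list summed to 504 cpm in them against 125, 3569 and 2383 cpm. The part of either in these values was not tested. The endothelial levels rest on 100 cells at day 5 and 58 at day 2.

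**Figure D4:**
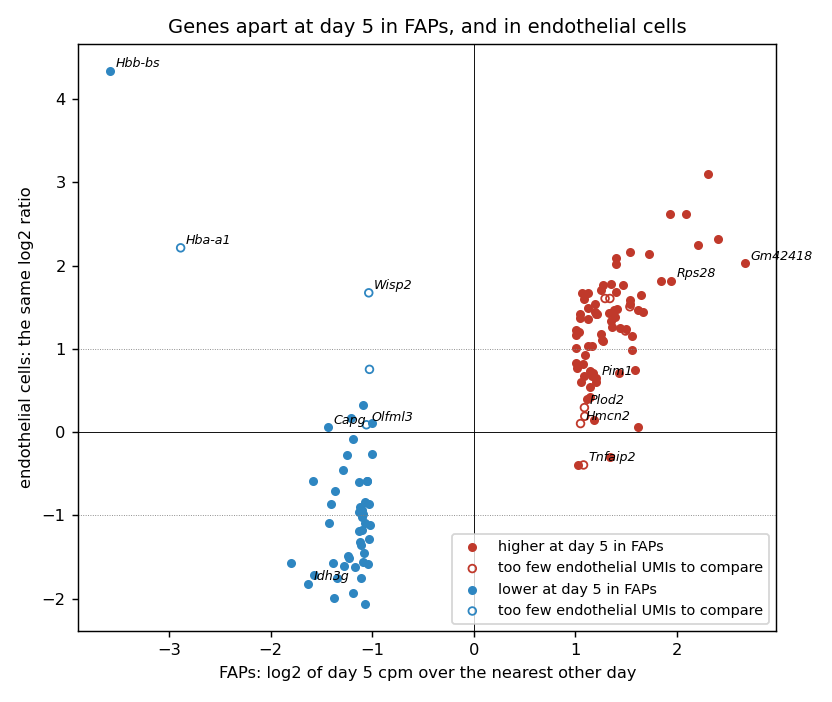
The 130 genes that stood apart at day 5 in FAPs, with the log2 ratio of day 5 to the nearest other day in FAPs on the horizontal axis and in endothelial cells on the vertical axis. Dotted lines mark 2-fold in endothelial cells. Red stands for genes higher and blue for genes lower at day 5 in FAPs, and open circles are the 8 and 4 genes with too few endothelial UMIs, drawn with a floor of 3 UMIs. Of the 80 genes in red 51, such as Gm42418 and Rps28, are filled and lie past 2-fold on both axes.

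Of the 21 genes higher at day 5 that did not pass 2-fold in endothelial cells, 15 had no ribosomal or gene model name, and so had the 8 with too few UMIs there. Among the 15 were markers of other cell classes, Pvalb of the mature muscle list (log2 ratio 1.56) and Pecam1 of the endothelial list (1.19). In endothelial cells Pvalb fell just short of the fold, with a log2 ratio of 0.988. The mature muscle list in FAPs was highest at day 5, at 247, 28.0, 760 and 568 cpm at days 0, 2, 5 and 7. The part of RNA from other cells in the day 5 genes was not tested. Those described next were singled out after the values were seen. Pim1, a survival kinase, stood at 145, 122, 334 and 117 cpm in FAPs at days 0, 2, 5 and 7, a log2 ratio of 1.21 to the nearest day, against 0.65 in endothelial cells. Ptgfrn, a membrane protein, stood at 123, 85.03, 261 and 118 cpm, with ratios of 1.08 and 0.67. Day 5 endothelial cells held 29 UMIs of Pim1 and 13 of Ptgfrn. So few UMIs do not show that FAPs and endothelial cells differed in these ratios. Plod2, which hydroxylates lysines of collagen ends for crosslinking, stood at 44.6, 82.4, 193 and 90.7 cpm in FAPs. Hmcn2, a large extracellular protein of the hemicentin family, stood at 155, 26.9, 321 and 101 cpm, and Tnfaip2, a gene induced by tumour necrosis factor, at 59.8, 57.3, 127 and 38.9 cpm. Each of these 5 genes was highest at day 5. For Plod2, Hmcn2 and Tnfaip2 the day 5 endothelial cells held only 3, 4 and 3 UMIs, so that their endothelial ratio cannot be read.

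The genes lower at day 5 included 4 with too few endothelial UMIs. Olfml3, 1 of them, a secreted matrix protein, stood at 208, 458, 99.8 and 315 cpm at days 0, 2, 5 and 7, with 1 UMI in day 5 endothelial cells, too few to compare. Wisp2, a matricellular protein, stood at 118, 180, 55.9 and 114 cpm, with 0 UMIs there. Capg, a protein that caps actin filaments, stood at 385, 312, 116 and 322 cpm. For Capg the log2 ratio to the lowest other day was -1.43 in FAPs and 0.06 in endothelial cells. The endothelial levels were 134, 575, 139 and 361 cpm, with 24 UMIs at day 5. Hbb-bs, the beta globin of red cells, had the lowest ratio at -3.58, at 506, 172, 14.4 and 179 cpm. Globins come from red cells, and the red cell list summed to 25.4 cpm in day 5 FAPs against 287 to 1045 cpm on the other days.

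Summed levels of the gene groups took several courses over the days. Fibrillar collagens summed to 9110, 21101, 32976 and 47850 cpm at days 0, 2, 5 and 7, and imprinted genes to 2996, 3844, 5372 and 8950 cpm. Small leucine-rich proteoglycans took another course, at 23845, 10903, 14515.5 and 20561 cpm, a course set by Dcn, since without it they summed to 4529, 5773, 6181 and 9252 cpm. Complement genes summed to 4679, 2116, 3591 and 3853 cpm. The Cxcl14 and Smoc2 list summed to 59724, 8688, 20917 and 15582 cpm, and without Gsn, at 44811, 2307, 10608 and 5082 cpm, to 14913, 6381, 10308 and 10499.7 cpm. Secreted Wnt modulators were highest at day 2, at 484, 1441, 763 and 389 cpm, where Sfrp2 alone held 1019 cpm. The tenocyte list, whose UMIs were partly those of the 15 cells above, summed to 172, 461, 1355 and 1159 cpm. At day 5 Thbs4 alone held 1019 of the 1355 cpm. Its UMIs lay in 315 FAPs, and the 15 cells held 17.4% of them.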

How the data were processed

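Single-cell libraries of sorted live muscle cells were compared by the deposited cell labels. The counts are raw UMIs per gene and cell as deposited by the authors, and the metadata holds the authors' labels and the mitochondrial fraction of each cell. The build mm10 and the tools Seurat 2.3.4, Cell Ranger 2 and R 3.6.2 are listed in the submitters' processing notes, and what each was used for is not given in the sources used here. Days follow the sample labels, because all 4 metadata tables say Day 0 under injury.

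UMIs were summed over the cells of a label and divided by the label's total. Ratios carry exact binomial (Clopper-Pearson) intervals and levels exact Poisson intervals, at 95%, and both cover counting error only. A group with fewer than 3 UMIs entered a ratio with a floor of 3 UMIs over the group. Genes needed 50 cpm and 20 UMIs, and at least 2-fold was counted. No p-values were computed, since there is 1 table per day and cells are not replicates. No doublet caller was run, and cells with markers of other classes were counted and left out as an alternative. Fano factors and shares of cells used cells thinned to 1000 UMIs. Sub-clusters came from Leiden clustering at resolution 0.5 with 2000 variable genes, 20 principal components and 15 neighbours in scanpy 1.11.5. The calculations were tested on simulated data.

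The members, the 28 role lists and the 14 marker lists were chosen with earlier results of these data known. Genes were named by rule. The rule takes the 5 markers, the 20 largest ratios over the other labels, the 10 most abundant genes, the 15 largest Fano factors, the 6 leading genes of each sub-cluster, the 10 most extreme genes between days in each direction, and list members that were called or among the 4 highest. Some are left out of the text. Alternatives were another scaling, thinning, per-cell means, filters of 20 and 200 cpm, other cluster settings, and left-out cells or labels.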

Additional observations from a re-analysis of the deposited data

Results flagged for a closer look

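The day 5 table held 13 barcodes without a label, which entered no comparison. Their 136011 UMIs, with a median of 1385 per barcode, gave a summed level of 28689 cpm for the 12 FAP marker genes, and 515 cpm for the mature muscle list. With so low a median, most of these UMIs lay in a few of the 13 barcodes. The summed levels mainly reflect those few and do not describe a typical unlabelled barcode. They are given here because this signal lies in data outside the labelled cells.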

How the results depend on the processing

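Counts of genes past 2-fold moved by more than 1.5 times mainly with the filter on low levels. At 20 cpm, genes lower than in every other label numbered 7 and at 200 cpm 1, and genes higher than in every label 166 at 200 cpm. Between days the higher and lower genes numbered 143 and 98 at 20 cpm and 31 and 14 at 200 cpm. At 20 cpm the higher and lower counts were 1748 and 1089 against Anti-inflammatory macrophages, 1916 and 1225 against Macrophages/APCs/T-cells and 2171 and 1144 against NK cells, and the lower counts 1627 against Endothelial and 1151 against MuSCs and progenitors. At 200 cpm the higher and lower counts were 278 and 207, 301 and 189, 319 and 228, 227 and 246, and 290 and 122 in that order, and 442 and 372 against Mature skeletal muscle. Without mitochondrial and ribosomal protein genes in the totals, genes lower than in every label numbered 4, and the lower counts were 1261 against Macrophages/APCs/T-cells, 1336 against NK cells and 1576 against MuSCs and progenitors, whose higher count was 596. With cells thinned to 1000 UMIs, genes higher than in every label numbered 188 and lower 0, the higher counts were 891 against Mature skeletal muscle and 389 against MuSCs and progenitors, and the lower count there was 892. The floor of 3 UMIs, which stands higher in cpm in small thinned labels, enters these higher counts. Genes lower than in every label numbered 5 without FAPs holding 2 or more UMIs of other classes and 64 against labels with at least 100 cells. Thinning to 500 UMIs left 84 genes with a Fano factor of 1.5 or more, 82 of them among the 163. Leaving out genes that differ likewise in endothelial cells, chosen after seeing the data, left 29 and 25 genes between days, which include 8 and 4 with too few endothelial UMIs to compare. Signs turned for H19 over the highest label at 3.13 (labels with at least 100 cells), for Rgs5 at -0.46 and Gdf10 at -1.47 in sub-cluster 2 with 1000 variable genes, and for Gdf10 at -2.78 without FAPs holding 4 or more markers of another class, also chosen after seeing the data. In sub-cluster 3 they turned for Inmt at -1.74 and Fgl2 at -0.93 with split UMIs, and for Myc at -0.14, Inmt at -0.70 and Fgl2 at -0.30 without FAPs holding 2 or more UMIs of other classes. Sub-cluster ratios were read in the best matching cluster of each setting. For sub-cluster 3 it held 64 of 148 cells with split UMIs and 29 of 54 without those FAPs. The causes were not tested. Of 216 label ratios recomputed 185 lay within the counting interval of the reported value, of 120 day ratios 105 and of 252 sub-cluster ratios 149. Of 75 Fano factors 34 lay within 1.2 times of it. Leaving out FAPs with 2 or more UMIs of other classes was not run between days, because 0 of 667 day 2 FAPs remained.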
